A study of Mus musculus with 12 samples.

Results

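The 10 genes described here encode the proteins that load cohesin onto DNA, release it, lock it in place and protect it, together with the boundary protein CTCF. They are Nipbl, Mau2, Wapl, Pds5a, Pds5b, Cdca5, Esco1, Esco2, Sgo1 and Ctcf, chosen by name and found by gene identifier, and they are 10 of the 55487 genes listed in each RNA-seq table. RNA was sequenced from sorted mouse bone marrow LSK cells, the lineage-negative, Sca1-positive, c-Kit-positive fraction that contains the blood stem cells and early progenitors. There were 4 libraries with the genotype Yy1-/- Smc3+/-, 4 with the genotype Yy1-/- and 4 with the wild-type genotype Yy1+/+. Both mutant groups are labelled as deleted for the transcription factor gene Yy1, and the first also as heterozygous for Smc3, SMC3 being a core subunit of the cohesin ring. How and when the alleles were deleted, and the sex and age of the mice, are not stated by the sources used here. No source says whether each library came from its own mouse, so the p-values measure the spread between libraries.

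Cohesin is a ring of SMC1, SMC3 and RAD21 with a STAG subunit. The heterodimer of NIPBL and MAU2 loads it and drives the extrusion of DNA loops, WAPL with PDS5 opens the ring and releases it, and CTCF halts it at the borders of loops. ESCO1 through the cell cycle, and ESCO2 during DNA replication, acetylate SMC3, and sororin, the product of Cdca5, then keeps WAPL away so that sister chromatids stay joined. In mitosis shugoshin, the product of Sgo1, guards the cohesin at centromeres until anaphase. YY1 binds promoters and enhancers and, like CTCF, takes part in joining distant DNA elements.

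The start sites of Cdca5, Sgo1, Ctcf and Pds5b are shown first: Cdca5 and Sgo1 because they rose in both mutant genotypes, Ctcf and Pds5b because their windows held letters of the YY1 site. RefSeq windows on GRCm38.p6, the mm10 build, from 250 bases before the annotated start to 50 after it, were matched for 7 of the 10 members. The capitals mark TTTGAA or TTCGAA, the core of the cell cycle homology region of late cell cycle genes, in Cdca5 (chr19:6085068-6085097, plus strand) and Sgo1 (chr17:53689271-53689300, minus strand). In Ctcf (chr8:105636536-105636565), Pds5b (chr5:150673778-150673807) and Smc3 (chr19:53600384-53600413), all on the plus strand, they mark GCCATNTT, a core of the YY1 site. Each stretch of 30 bases is written 5′ to 3′ on the strand of its gene.
Sgo1: gtaacgcagaatTTCGAAtgtggcggcggt
Cdca5: caaggcgggcaaTTTGAAcgTTTGAAgcag
Ctcf: caccgcgccgccGCCATTTTgtgtccgagc
Pds5b: gctgctcttggcGCCATTTTgaagcggaga
Smc3: tccgcggccgccGCCATTTTgtttggccac

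Searched on both strands, TTTGAA or TTCGAA stood in 19.2% of all 32851 RefSeq windows and GCCATNTT in 6.05%. Among the 7 matched members, 5 held TTTGAA or TTCGAA, also Mau2 (at -81), Pds5b (at -32) and Ctcf (at -161), so the letters were not limited to the members that rose, and 2 held GCCATNTT. Counted from the start site, the Cdca5 matches began at -17 and -9 and the Sgo1 match at 28, while the YY1 letters began at 11 in Ctcf, at -37 in Pds5b and at 1 in Smc3. The RefSeq start lay 114 bases from the start of the GENCODE M21 model of Cdca5, 88 bases from that of Pds5b and 30 bases from that of Ctcf. By the GENCODE starts, the printed letters of Cdca5 and Pds5b lie after the start and those of Ctcf before it. The 250 bases before the start are printed for Cdca5 (chr19:6084847-6085096) and Ctcf (chr8:105636288-105636537), the members with the highest levels, with capitals also on the E2F letters TTGGCGC on either strand, whose search also took TTCCCGC as well as TTCGCGC and also TTGCCGC. These E2F letters stood in 9.57% of all windows, and in Cdca5 they lay after the start, at 14, outside the printed bases. These matches describe letters and do not show binding.
Cdca5 upstream: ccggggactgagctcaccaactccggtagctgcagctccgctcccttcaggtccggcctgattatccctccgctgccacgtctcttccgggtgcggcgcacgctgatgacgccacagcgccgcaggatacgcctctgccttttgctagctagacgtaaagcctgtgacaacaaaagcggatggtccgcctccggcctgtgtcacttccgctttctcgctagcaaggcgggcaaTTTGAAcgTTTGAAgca
Ctcf upstream: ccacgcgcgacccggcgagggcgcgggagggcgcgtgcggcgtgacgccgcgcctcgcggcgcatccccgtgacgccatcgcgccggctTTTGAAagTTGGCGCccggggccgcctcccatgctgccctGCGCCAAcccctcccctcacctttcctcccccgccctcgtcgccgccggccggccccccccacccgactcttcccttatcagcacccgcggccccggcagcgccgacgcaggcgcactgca

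The summed expected counts lay between 38671354 and 69086104 per library, and between 17214 and 20005 genes had at least 1 count. Yy1 itself measured 0.772 to 4.45 CPM (read counts scaled to library size with TMM factors) in Yy1-/- Smc3+/- libraries and 0.407 to 12.2 CPM in Yy1-/- libraries, against 33.9 to 41.3 CPM in Yy1+/+ libraries. The highest residual Yy1 stood in Yy1-/- replicates 4, at 12.2 CPM, and 3, at 5.01 CPM, and in Yy1-/- Smc3+/- replicate 3, at 4.45 CPM, so these libraries kept Yy1 reads against their label. Smc3 mRNA measured 254 to 344 CPM in the libraries labelled Yy1-/- Smc3+/- and 200 to 306 CPM in Yy1-/- libraries, against 160 to 214 CPM in Yy1+/+ libraries, so the mRNA level did not mark the heterozygous genotype. Of 10 LSK markers, 8 fell in Yy1-/- and 7 in Yy1-/- Smc3+/- libraries against Yy1+/+, beside 18.8% and 16.7% of all genes tested. Ly6a, which encodes the sort marker Sca1, measured 314 to 758 TPM in Yy1-/- Smc3+/- and 422 to 712 TPM in Yy1-/-, against 377 to 604 TPM in Yy1+/+.

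Both mutant genotypes held more mRNA of the mitotic protectors Sgo1 and Cdca5 and less of the acetyltransferase gene Esco1 than Yy1+/+ cells. All 10 members passed the filter on low counts. By edgeR's quasi-likelihood test, with Benjamini-Hochberg adjustment over 16649 genes at 0.05, 3 of the 10 changed in Yy1-/- against Yy1+/+: Sgo1 and Cdca5 rose and Esco1 fell. Across all genes tested, 35.2% changed in that comparison, 16.3% upward and 18.8% downward. In Yy1-/- Smc3+/- against Yy1+/+, 5 of the 10 changed, Sgo1, Cdca5, Esco2 and Ctcf upward and Esco1 downward, against 29.9% of all genes, 13.1% upward and 16.7% downward. At an unadjusted p under 0.05 there were 6 members in each comparison, against 45.3% of genes in Yy1-/- and 41.4% in Yy1-/- Smc3+/-. The CPM ranges of the 4 mutant and 4 Yy1+/+ libraries stood apart for 4 members in Yy1-/- (30.9% of all genes) and for 6 in Yy1-/- Smc3+/- (32.2%), and their TPM ranges for 4 in each (30.4% and 31.1%). With 10 members, shares of this size do not set them apart from all genes. The median log2 fold change of the 10 was 0.30 in the first comparison and 0.36 in the second, beside 0.01 and 0.02 over all genes tested. The 2 comparisons share the Yy1+/+ libraries. In bulk RNA, a different share of cells in a given state and a different amount of RNA per cell cannot be told apart.

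**Figure D1:**
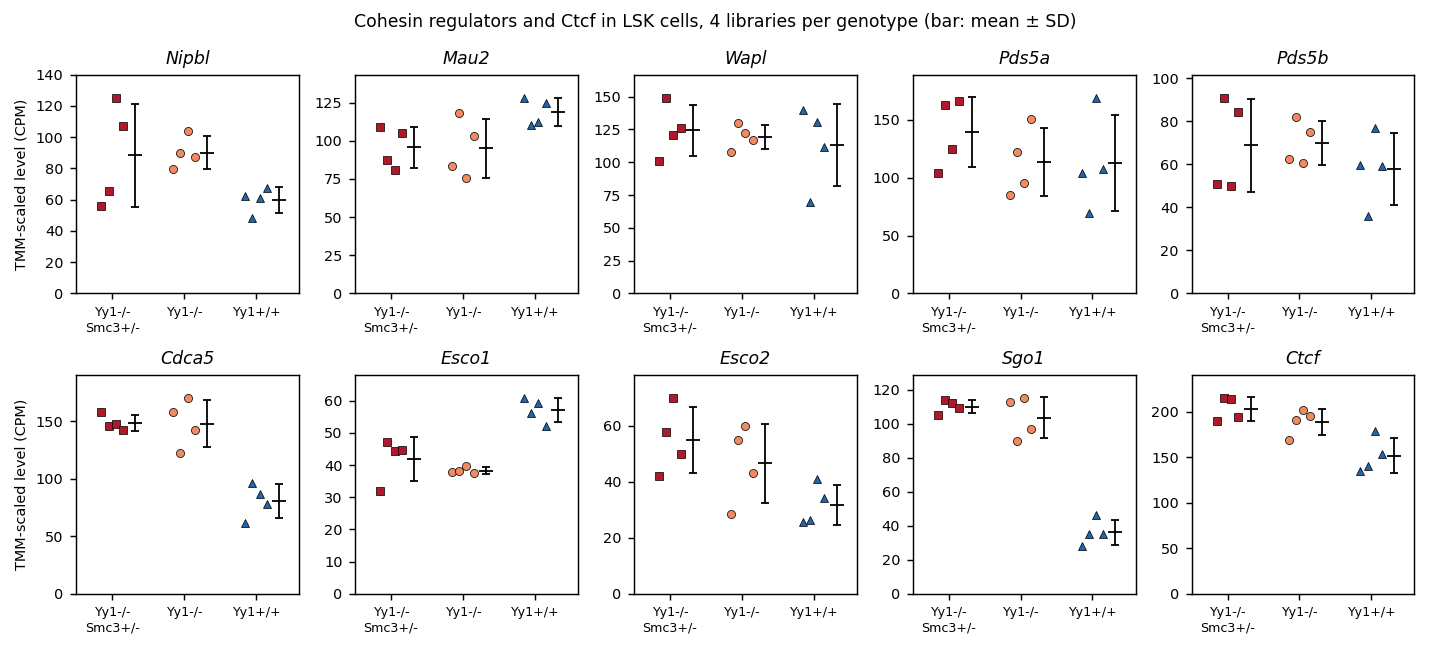
Level of each of the 10 genes in every library, in TMM-scaled CPM on linear axes that start at 0, with 4 libraries per genotype and the mean ± SD as a bar. Sgo1 and Cdca5 lie higher, and Esco1 lower, in every library of both mutant genotypes than in any Yy1+/+ library.

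**Figure D2:**
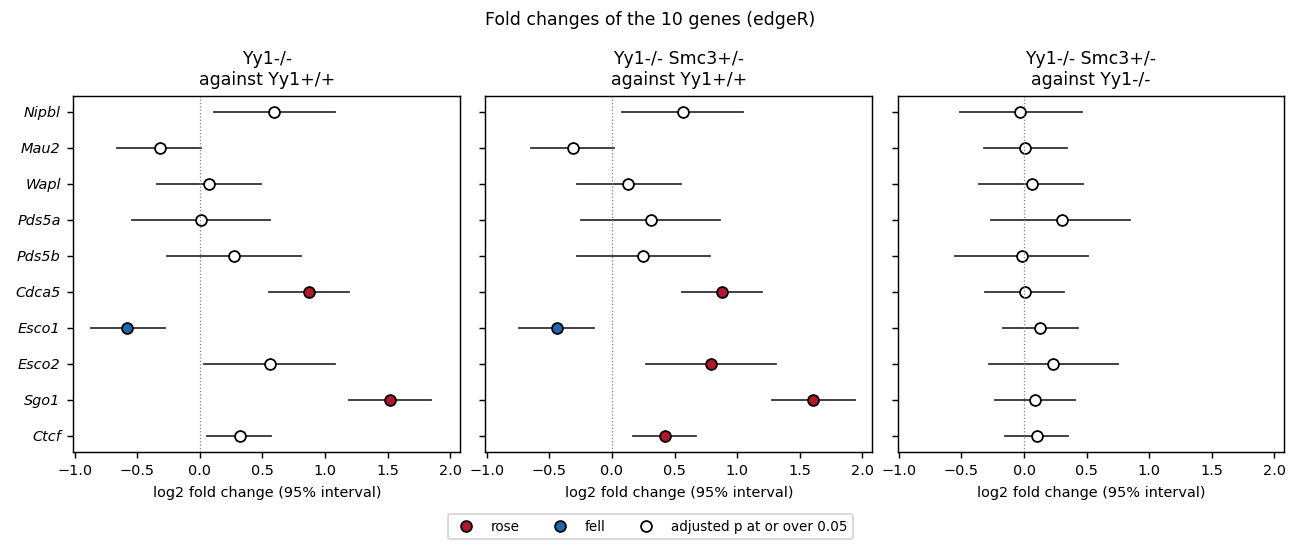
Log2 fold change with its 95% interval for each gene in the 3 comparisons, from edgeR, with filled points for an adjusted p under 0.05. Between Yy1-/- Smc3+/- and Yy1-/- every interval spans 0.

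Sgo1 (chr17:53674786-53689333, minus strand), the centromere guard whose start-site letters are printed above, changed most of the 10. It measured 105, 114, 112 and 109 CPM in Yy1-/- Smc3+/- libraries and 113, 89.9, 115 and 96.8 CPM in Yy1-/- libraries, against 27.9, 35.1, 46.2 and 35.1 CPM in Yy1+/+ libraries. The lowest mutant library stood above the highest Yy1+/+ library. The level was 3.05-fold higher in Yy1-/- Smc3+/- (log2 1.61 ± 0.15 SE, adjusted p 1.79e-05 by edgeR) and 2.88-fold higher in Yy1-/- (log2 1.52 ± 0.15 SE, adjusted p 2.44e-05), than in Yy1+/+. Under all 19 alternative analyses it stayed past the threshold in both comparisons, with log2 values of 1.42 to 1.75 and 1.24 to 1.66. Over the 12 libraries, the 3 genes whose pattern was most like that of Sgo1 were Ndc80 and Ska1, which attach microtubules to kinetochores, and the mitotic kinase Nek2, with root mean square differences of 0.17, 0.20 and 0.19 log2 units among 10793 genes.

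Most partners of shugoshin at the centromere rose with it. The list of 7 holds the kinases Plk1, Bub1, Aurkb and Haspin, the Aurora B scaffold Incenp, the second shugoshin Sgo2a and the PP2A scaffold Ppp2r1a. In Yy1-/- against Yy1+/+ 6 of the 7 rose, with a list median of 1.08, and in Yy1-/- Smc3+/- against Yy1+/+ the same 6 rose, with a median of 1.13. The shares of all genes tested that rose were 16.3% and 13.1%. Plk1, which drives cohesin off chromosome arms in prophase, averaged 251 CPM in Yy1-/- Smc3+/- and 230 CPM in Yy1-/-, against 93.2 CPM in Yy1+/+. Bub1, whose histone mark recruits shugoshin, averaged 122 CPM in Yy1-/- Smc3+/- and 112 CPM in Yy1-/-, against 52.2 CPM in Yy1+/+. The exception, named after its values were seen, was Ppp2r1a, which fell in Yy1-/- (log2 -0.38 ± 0.13 SE, edgeR adjusted p 0.0365) and gave a log2 value of -0.29 in Yy1-/- Smc3+/- (adjusted p 0.111).

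Cdca5 (chr19:6084983-6091777, plus strand), which encodes the WAPL antagonist sororin, was the other member that rose in both mutant genotypes. Its libraries measured 158, 146, 148 and 142 CPM in Yy1-/- Smc3+/- and 158, 122, 170 and 142 CPM in Yy1-/-, against 61.6, 96.7, 86.3 and 77.7 CPM in Yy1+/+. The groups did not overlap. The level was 1.84-fold higher in Yy1-/- Smc3+/- (log2 0.88 ± 0.15 SE, edgeR adjusted p 0.000796) and 1.83-fold higher in Yy1-/- (log2 0.87 ± 0.15 SE, adjusted p 0.000755), and remained past the threshold under all 19 alternatives in both comparisons. Patterns near it over the 12 libraries were those of Rfc4, a subunit of the clamp loader of replication, and of the recombination gene Psmc3ip, at 0.08 and 0.10 log2 units.

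Genes of the G2 phase and mitosis stood higher in the same libraries. Of 20 G2/M genes, 19 rose in Yy1-/- against Yy1+/+ (median log2 1.11) and 20 in Yy1-/- Smc3+/- against Yy1+/+ (median 1.09). Their summed level was 2410 to 2710 TPM (a level divided by transcript length and library total) in Yy1-/- Smc3+/- and 2140 to 2860 TPM in Yy1-/-, against 1150 to 2000 TPM in Yy1+/+. Cdk1, the mitotic kinase, averaged 281 CPM in Yy1-/- Smc3+/- and 317 CPM in Yy1-/-, against 128 CPM in Yy1+/+. The exception in Yy1-/- was the checkpoint gene Bub1b, named after its values were seen (log2 0.57 ± 0.22 SE, edgeR adjusted p 0.0577). Of 20 S phase genes, 5 rose and 1, the helicase gene Mcm2, fell in Yy1-/- (median 0.05), and 5 rose in Yy1-/- Smc3+/- (median 0.15). Beside both lists, 16.3% of all genes tested rose in Yy1-/- and 13.1% in Yy1-/- Smc3+/-. The S phase counts do not set that list apart from all genes.

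Set against the median of the 20 G2/M genes within each library, in deviations from each gene's own mean, Sgo1 lay 0.14 to 0.29 log2 units above it in Yy1-/- Smc3+/- libraries and between -0.05 and 0.46 in Yy1-/- libraries, against -0.47 to -0.25 in Yy1+/+ libraries. The mutant and Yy1+/+ ranges of Sgo1 did not overlap on this scale. The median hides the spread of the 20 genes, some of which rose more than Sgo1. Against Yy1+/+ these were Cenpf (log2 1.80) and Cdc25c (1.64) in Yy1-/-, and Cdc25c (1.66) in Yy1-/- Smc3+/-. The rest of the 20 had smaller values than Sgo1. Cdca5 lay between -0.16 and 0.11 in Yy1-/- Smc3+/- and between -0.29 and 0.24 in Yy1-/-, against -0.20 to 0.51 in Yy1+/+, and these ranges overlapped. Esco2 lay between -0.29 and 0.27 in Yy1-/- Smc3+/- and between -0.73 and 0.07 in Yy1-/-, against 0.14 to 0.40 in Yy1+/+. On this scale the Yy1-/- range of Esco2 thus lay below that of Yy1+/+, and the Yy1-/- Smc3+/- range overlapped it. The share of all genes with ranges apart on this scale was not computed. The part of the G2/M genes in these results was not tested beyond these values.

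**Figure D3:**
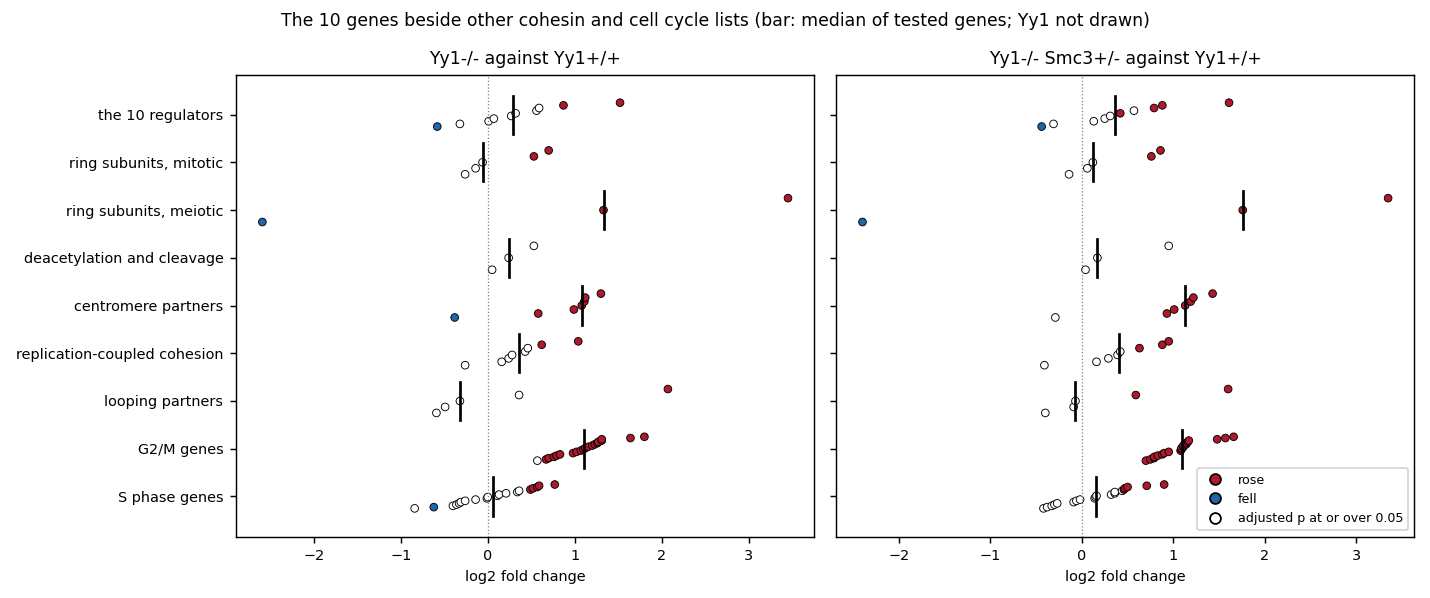
Log2 fold change of each tested gene of the 10 regulators and of 8 lists of cohesin and cell cycle genes, in Yy1-/- (left) and Yy1-/- Smc3+/- (right) against Yy1+/+, with the list median as a bar and Yy1 left out of the looping partners. The centromere partners and G2/M genes lie mostly above 0, with medians of 1.08 and 1.11 on the left and 1.13 and 1.09 on the right.

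The acetyltransferase genes differed in direction in Yy1-/- Smc3+/-, where Esco1 fell and Esco2 rose. Esco1 (chr18:10566507-10610352, minus strand), whose enzyme acetylates SMC3 throughout the cell cycle, measured 31.9, 47.1, 44.3 and 44.8 CPM in Yy1-/- Smc3+/- libraries and 38.0, 38.2, 39.7 and 37.4 CPM in Yy1-/- libraries, against 60.8, 56.1, 59.2 and 52.3 CPM in Yy1+/+ libraries. All 8 mutant libraries were below the lowest Yy1+/+ library, and Yy1-/- Smc3+/- replicate 1 was the lowest. Esco1 fell by 0.58 log2 units in Yy1-/- (SE 0.14, edgeR adjusted p 0.00621), to 0.671 of the Yy1+/+ level, under the main analysis and all 19 alternatives. In Yy1-/- Smc3+/- it fell by 0.44 (SE 0.14, adjusted p 0.0283), and that call was lost without Yy1-/- Smc3+/- replicate 1 (adjusted p 0.0705), without Yy1+/+ replicate 1 (0.0757), without Yy1+/+ replicate 3 (0.0621) or without the libraries with residual Yy1 (0.0528). Its nearest patterns were those of the phosphatase subunit gene Ppp4r2, the zinc finger gene Zfp260 and the deubiquitinase gene Usp15, at 0.08, 0.11 and 0.11 log2 units.

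Esco2 (chr14:65819038-65833994, minus strand), whose enzyme acts at replication forks, measured 42.2, 57.7, 69.9 and 50.1 CPM in Yy1-/- Smc3+/- libraries and 28.4, 55.0, 60.0 and 43.1 CPM in Yy1-/- libraries, against 25.6, 26.3, 40.9 and 34.3 CPM in Yy1+/+ libraries. Each Yy1-/- Smc3+/- library was above every Yy1+/+ library, whereas Yy1-/- replicate 1 lay within the Yy1+/+ range. Esco2 rose 1.73-fold in Yy1-/- Smc3+/- (log2 0.79 ± 0.24 SE, edgeR adjusted p 0.0258). The call was lost without Yy1-/- Smc3+/- replicate 2 (adjusted p 0.0681) or 3 (0.0793), without Yy1+/+ replicate 1 (0.0769) or 2 (0.0636), without a filter (0.0571), without the libraries with residual Yy1 (0.113) and on the log2 TPM scale (0.137). In Yy1-/- the log2 value was 0.56 ± 0.24 SE (adjusted p 0.0904), and without Yy1-/- replicate 1 it passed the test at 0.70 (adjusted p 0.0286). Its nearest patterns were those of Smc3, the substrate of the enzyme, the kinetochore gene Ska2 and the chromatin gene Ankrd11, at 0.17, 0.20 and 0.20 log2 units.

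Within each library the ratio of Esco2 to Esco1, taken on the length-corrected TPM scale, averaged 1.69 ± 0.221 in Yy1-/- Smc3+/- and 1.67 ± 0.541 in Yy1-/-, against 0.733 ± 0.185 in Yy1+/+ (SD, n = 4 each). It ranged from 1.44 to 1.98 and from 1.0 to 2.23 in the 2 mutant genotypes, against 0.553 to 0.907 in Yy1+/+. Esco1 was the more abundant of the pair in every Yy1+/+ library, and Esco2 was at least as abundant in every mutant library.

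Genes for cohesion at replication forks and genes that later undo cohesion were described from their lists. Of 8 genes for cohesion at forks, Tipin and Timeless, partners in the fork protection complex, rose in Yy1-/-. Both rose with the clamp loader gene Chtf18 in Yy1-/- Smc3+/-. The list medians were 0.35 and 0.40. Of all genes tested, 16.3% and 13.1% rose in these comparisons, and with 8 genes the counts do not set the list apart from them. Tipin averaged 251 CPM in Yy1-/- Smc3+/- and 267 CPM in Yy1-/-, against 130 CPM in Yy1+/+. The SMC3 deacetylase gene Hdac8 gave log2 values of 0.04 in Yy1-/- Smc3+/- and 0.05 in Yy1-/- (edgeR adjusted p 0.897 and 0.853). Espl1, which encodes separase, gave 0.95 ± 0.43 SE and 0.53 ± 0.43 SE (adjusted p 0.111 and 0.353), and the securin gene Pttg1 gave 0.17 and 0.24 (adjusted p 0.542 and 0.351).

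Neither loader gene passed the test on counts. Nipbl (chr15:8290617-8444463, minus strand), the extrusion-driving subunit, measured 56.2, 65.5, 125 and 107 CPM in Yy1-/- Smc3+/- libraries and 79.3, 89.8, 104 and 87.2 CPM in Yy1-/- libraries, against 62.3, 48.4, 60.8 and 67.4 CPM in Yy1+/+ libraries. Replicates 1 and 2 of Yy1-/- Smc3+/- were within the Yy1+/+ range and replicates 3 and 4 above it, while all Yy1-/- libraries were above it. The log2 value was 0.57 ± 0.23 SE in Yy1-/- Smc3+/- (edgeR adjusted p 0.0741) and 0.59 ± 0.23 SE in Yy1-/- (adjusted p 0.0556), so neither passed the test. Leaving out Yy1-/- Smc3+/- replicate 1 gave 0.73 with an adjusted p of 0.0221, and in Yy1-/- the call was made by DESeq2 (0.0414) and with the 2 genotypes fitted alone (0.0134).

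Mau2 (chr8:70016123-70042734, minus strand), the partner that stabilizes NIPBL, measured 109, 87.6, 81.1 and 105 CPM in Yy1-/- Smc3+/- libraries and 83.6, 118, 75.6 and 103 CPM in Yy1-/- libraries, against 128, 110, 112 and 125 CPM in Yy1+/+ libraries. The Yy1-/- Smc3+/- libraries lay below the Yy1+/+ range, replicates 1 and 4 closely so, and 1 Yy1-/- library, replicate 2, within it. The log2 values of -0.31 ± 0.15 SE and -0.32 ± 0.15 SE were not called by edgeR (adjusted p 0.142 in Yy1-/- Smc3+/- and 0.12 in Yy1-/-), but without Yy1-/- replicate 2 the Yy1-/- value was -0.45 with an adjusted p of 0.0403.

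On the TPM scale, which divides by transcript length, Mau2 measured 37.3, 34.0, 22.7 and 35.8 TPM in Yy1-/- Smc3+/- and 22.2, 35.0, 22.2 and 36.9 TPM in Yy1-/-, against 54.4, 39.0, 52.1 and 56.1 TPM in Yy1+/+. Here no mutant library reached the lowest Yy1+/+ library. On log2(TPM + 0.5) with limma the differences were -0.64 in Yy1-/- Smc3+/- and -0.81 in Yy1-/- (adjusted p 0.0402 and 0.0108), and with effective lengths as an offset in edgeR they were -0.48 and -0.56 (adjusted p 0.0485 and 0.0219). On the log2 TPM scale the median of all genes lay at -0.129 and -0.211 in those comparisons, and only 27.7% and 25.4% of called genes were higher, against 44% and 46.5% in the main analysis.

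The weighted transcript length, which is the mean length of the annotated transcripts that RSEM assigned reads to, moved with this difference of scales. For Mau2 it was 3793, 3665, 4417 and 3882 bases in Yy1-/- Smc3+/- and 4148, 4204, 4135 and 3860 bases in Yy1-/-, against 3661, 3582, 3574 and 3518 bases in Yy1+/+. The 4 annotated Mau2 transcripts measure 5369, 5323, 2887 and 1931 bases, so a greater length means a larger share of the longer ones. All 8 mutant libraries lay above the highest Yy1+/+ library, Yy1-/- Smc3+/- replicate 2 only narrowly, at 3665 against 3661 bases. The difference was 0.13 ± 0.05 SE log2 units in Yy1-/- Smc3+/- (limma adjusted p 0.238 over 7152 genes) and 0.19 ± 0.05 SE in Yy1-/- (adjusted p 0.0838). None of the 5 members with more than 1 transcript length passed that test, against 3.37% and 3.8% of genes, and at an unadjusted p under 0.05 Mau2 was the 1 member in each comparison, against 15.7% and 17.7% of genes. The length ranges of Mau2 stood apart from Yy1+/+ in both, as did those of 12.1% and 13.2% of genes. With the 2 genotypes alone in the fit, Mau2 passed in Yy1-/- (adjusted p 0.0287).

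**Figure D4:**
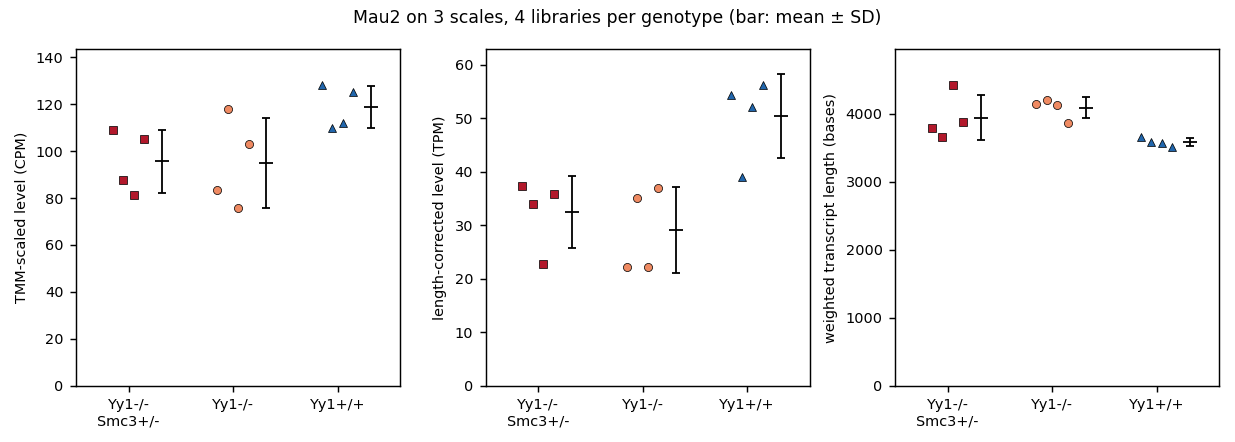
Mau2 in each library on 3 scales, TMM-scaled CPM, TPM and weighted transcript length in bases, on axes that start at 0, with the mean ± SD of 4 libraries as a bar. The Yy1-/- and Yy1+/+ ranges meet in CPM but are apart in TPM and in length.

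The TPM ratio of Mau2 to Nipbl averaged 3.16 ± 1.56 in Yy1-/- Smc3+/- and 2.59 ± 0.627 in Yy1-/-, against 5.6 ± 0.535 in Yy1+/+ (SD, n = 4 each). The highest Yy1-/- Smc3+/- library, at 5.08, came close to the lowest Yy1+/+ library, at 5.17, while the Yy1-/- libraries ended at 3.08. This ratio carries the length term described above.

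None of the release genes Wapl, Pds5a and Pds5b was called in any comparison of the main analysis, each with an unadjusted edgeR p above 0.05, and DESeq2 called none of them. Wapl (chr14:34673928-34747983, plus strand), which opens the ring, measured 101 to 149 CPM in Yy1-/- Smc3+/- libraries and 108 to 130 CPM in Yy1-/- libraries, against 69.7 to 140 CPM in Yy1+/+ libraries. The log2 difference from Yy1+/+ had a 95% interval of -0.28 to 0.55 in Yy1-/- Smc3+/- and -0.34 to 0.49 in Yy1-/-. Pds5a (chr5:65605721-65698273, minus strand), 1 of the 2 PDS5 scaffolds through which WAPL and sororin act, measured 104 to 166 CPM in Yy1-/- Smc3+/- and 85.3 to 151 CPM in Yy1-/-, against 69.7 to 169 CPM in Yy1+/+. Its intervals were -0.25 to 0.86 and -0.54 to 0.56. Its paralogue Pds5b (chr5:150673739-150810690, plus strand) measured 49.8 to 90.8 CPM in Yy1-/- Smc3+/- and 60.7 to 81.9 CPM in Yy1-/-, against 36.0 to 76.8 CPM in Yy1+/+, with intervals of -0.28 to 0.78 and -0.26 to 0.81.

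The libraries spread widely for these genes. Nipbl, Pds5a, Pds5b and Wapl have transcripts of over 5000 bases, and libraries differed in the level of the 2016 genes of that length. The median deviation of those genes was lowest in Yy1-/- replicate 1, at -0.40 log2 units, and in Yy1+/+ replicate 2, at -0.32, and highest in Yy1+/+ replicate 3, at 0.44. In Yy1+/+ replicate 2 Pds5a deviated by -0.75, Pds5b by -0.82, Wapl by -0.75 and Nipbl by -0.66 log2 units from their own means, the lowest value of each gene in the series. In Yy1-/- replicate 1 Pds5a deviated by -0.46, but Wapl by -0.11, Pds5b by -0.03 and Nipbl by 0.06. Nipbl also stood low, at -0.33, in Yy1+/+ replicate 3, where long transcripts were highest. Sgo1, with a transcript of 3628 bases, deviated by -1.07 in Yy1+/+ replicate 2 and by -0.68 in Yy1+/+ replicate 3. Among pairs of members the closest patterns over the 12 libraries were those of Wapl with Pds5b and Pds5a with Pds5b, at root mean square differences of 0.21 and 0.23 log2 units, while Nipbl lay 0.38 to 0.46 from Wapl, Pds5b and Pds5a.

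With this long-transcript level as a covariate, an analysis chosen after seeing the data, 8 members changed in Yy1-/- against Yy1+/+ in place of 3, beside 37.1% of all genes. The additional ones were Nipbl at 0.70 (edgeR adjusted p 0.0382), Pds5a at 0.38 (0.0311), Pds5b at 0.60 (0.0173), Esco2 at 0.72 (0.0296) and Ctcf at 0.39 (0.0119), all upward. In Yy1-/- Smc3+/- Pds5a was the 1 member added, at 0.49 (adjusted p 0.00673), beside 34.9% of all genes. Without Yy1-/- replicate 1 and Yy1+/+ replicate 2 the values of Wapl and Pds5a in Yy1-/- were both -0.09, so their sign was not fixed.

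**Figure D5:**
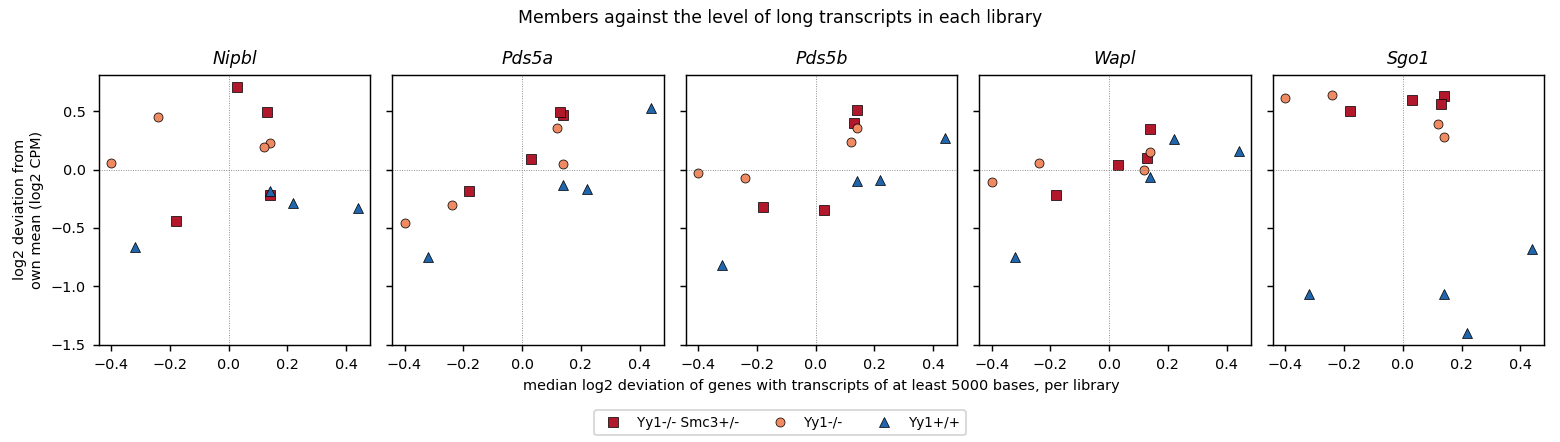
Deviation of 5 members from their own mean log2 CPM in each library (vertical axis, log2 units) against the median deviation of the 2016 genes with transcripts of at least 5000 bases (horizontal axis, log2 units), 1 point per library. Pds5a, Pds5b and Wapl are lowest in Yy1+/+ replicate 2, where the long-transcript level is -0.32, whereas for Sgo1 every mutant library lies above every Yy1+/+ library.

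The paralogue ratio of Pds5b to Pds5a averaged 0.591 ± 0.0709 in Yy1-/- Smc3+/- and 0.765 ± 0.109 in Yy1-/-, against 0.587 ± 0.098 in Yy1+/+ (SD, n = 4 each), and the ranges of the 3 genotypes met. The ratio of Cdca5 to Wapl, the antagonists on PDS5, averaged 3.82 ± 0.909 in Yy1-/- Smc3+/- and 3.7 ± 0.552 in Yy1-/-, against 2.52 ± 1.53 in Yy1+/+. The Yy1+/+ libraries gave 1.28, 4.75, 2.03 and 2.01, and every mutant library gave 2.92 or more. The overlap thus rested on Yy1+/+ replicate 2, the library in which Wapl was lowest. Without it, a step taken after its value was seen, the Yy1+/+ libraries ended at 2.03. Since the library was left out for its value, this step does not show that the groups are apart. Cdca5 has a transcript of 2024 bases and Wapl a weighted length of over 5000 bases. The long-transcript level was -0.32 log2 units in Yy1+/+ replicate 2, against 0.22, 0.44 and 0.14 in replicates 1, 3 and 4. It was lower still, at -0.40, in Yy1-/- replicate 1, where the ratio was 4.15. The part of that level in this ratio was not tested. Reads of Pds5a overlap 2 short models on the opposite strand that stayed at or below 3.1 CPM, and those of Ctcf overlap Gm5914 at up to 5.61 CPM.

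Ctcf (chr8:105636568-105682922, plus strand), the boundary factor, measured 190, 215, 214 and 194 CPM in Yy1-/- Smc3+/- libraries and 169, 191, 202 and 195 CPM in Yy1-/- libraries, against 135, 140, 179 and 154 CPM in Yy1+/+ libraries. All Yy1-/- Smc3+/- libraries exceeded the highest Yy1+/+ library, replicate 3, and 1 Yy1-/- library did not. Ctcf rose 1.34-fold in Yy1-/- Smc3+/- (log2 0.42 ± 0.12 SE, edgeR adjusted p 0.0167), and the Yy1-/- value of 0.32 ± 0.12 SE missed the threshold at an adjusted p of 0.0502. The first call was lost without Yy1-/- Smc3+/- replicate 2 (adjusted p 0.0724), without Yy1+/+ replicate 1 (0.0587), without the libraries with residual Yy1 (0.103), without a filter (0.0639) and on the log2 TPM scale (0.284). Among the alternatives that called Ctcf in Yy1-/- were the one without Yy1+/+ replicate 3 (0.0225) and DESeq2 (0.0326). Its nearest patterns were those of the transcription cofactor gene Ccar1 and the replication genes Mms22l and Mcm4, at 0.08, 0.08 and 0.09 log2 units. Ctcfl, the testis paralogue, was listed at 0 in every library.

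Other genes of DNA looping and of the ring itself follow. On the looping list Yy2, the paralogue of Yy1, rose in both mutant genotypes, averaging 6.65 CPM in Yy1-/- Smc3+/- and 9.09 CPM in Yy1-/-, against 2.19 CPM in Yy1+/+. Of the 5 mitotic ring subunits, Rad21 and Smc3 rose in both comparisons while Smc1a, Stag1 and Stag2 did not pass. Rad21 averaged 130 CPM in Yy1-/- Smc3+/- and 116 CPM in Yy1-/-, against 71.7 CPM in Yy1+/+. Of 3 tested meiotic subunits, Rec8 fell while Stag3 and Smc1b rose in both comparisons, and Rec8 averaged 3.53 CPM in Yy1-/- Smc3+/- and 3.07 CPM in Yy1-/-, against 18.7 CPM in Yy1+/+. Smc1b was low throughout, averaging 3.2 CPM in Yy1-/- Smc3+/- and 3.34 CPM in Yy1-/-, against 0.301 CPM in Yy1+/+. Its counts in Yy1+/+ libraries were 2 to 36. Across all genes tested, 16.3% rose and 18.8% fell in Yy1-/-, and 13.1% rose and 16.7% fell in Yy1-/- Smc3+/-. Counts from lists as short as these do not set them apart from all genes.

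Levels per transcript length placed the 10 genes in the following order. Cdca5 came first in each genotype, averaging 105 TPM in Yy1-/- Smc3+/- and 98.0 TPM in Yy1-/-, against 64.5 TPM in Yy1+/+, and Ctcf came second with 71.1, 62.5 and 60.9 TPM in the same genotypes. In Yy1+/+ these top 2 overlapped over libraries, and in both mutant genotypes they did not. Nipbl came last, averaging 11.7 TPM in Yy1-/- Smc3+/- and 11.3 TPM in Yy1-/-, against 9.14 TPM in Yy1+/+. Sgo1 took place 3 in both mutant genotypes, averaging 40.3 TPM in Yy1-/- Smc3+/- and 35.5 TPM in Yy1-/-, and place 8 in Yy1+/+, at 15.1 TPM. Esco1 took place 8 in both mutant genotypes, at 15.2 TPM in Yy1-/- Smc3+/- and 12.4 TPM in Yy1-/-, and place 5 in Yy1+/+, at 23.2 TPM. From place 4 down in Yy1-/- Smc3+/-, from place 3 down in Yy1-/- and at every place in Yy1+/+, each gene overlapped the next over libraries. The deposited FPKM values gave the same 30 places.

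Between Yy1-/- Smc3+/- and Yy1-/- no member changed. With edgeR 0 of the 10 passed the adjusted threshold, 0 had an unadjusted p under 0.05, DESeq2 called 0, and no member's CPM ranges stood apart, against 0.036% of all genes called, 6.46% at the unadjusted p and 2.01% with ranges apart. The median log2 value of the 10 was 0.07. The widest intervals were those of Pds5a, -0.26 to 0.85, and Pds5b, -0.55 to 0.51, and the narrowest were those of Ctcf, -0.15 to 0.35, and Esco1, -0.17 to 0.43. For Sgo1 the interval was -0.23 to 0.41 and for Cdca5 -0.31 to 0.32, so a further change in Smc3 heterozygous cells as large as the one against Yy1+/+ lay outside both.

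Markers of other blood cells also differed between the libraries. In Yy1-/- and in Yy1-/- Smc3+/- libraries against Yy1+/+, 8 and 5 of 10 monocyte and dendritic cell markers rose, 4 and 4 of 9 tested T and NK cell markers and 2 and 2 of 10 neutrophil markers rose, while 3 and 4 of 10 erythroid markers, 5 and 4 of 9 tested megakaryocyte markers and 5 and 5 of 10 mast cell and eosinophil markers fell. Of all genes tested, 16.3% rose and 18.8% fell in Yy1-/-, and 13.1% rose and 16.7% fell in Yy1-/- Smc3+/-. The counts of neutrophil markers were near these shares. Their sums overlapped, at 3060 to 17100 TPM in Yy1-/- Smc3+/-, 4280 to 18900 TPM in Yy1-/- and 2980 to 13000 TPM in Yy1+/+. The summed erythroid markers came to 142 to 590 TPM in Yy1-/- Smc3+/- and 105 to 1000 TPM in Yy1-/-, against 1990 to 3160 TPM in Yy1+/+. The summed monocyte and dendritic markers came to 300 to 625 TPM in Yy1-/- Smc3+/- and 327 to 1030 TPM in Yy1-/-, against 270 to 876 TPM in Yy1+/+. In this sum Ly6c2, which was not among those that rose, averaged 147 and 134 TPM in these genotypes, against 339 TPM. Ms4a6c, which rose, averaged 91.1 and 191 TPM, against 28.1 TPM. The summed LSK markers came to 1050 to 1530 TPM in Yy1-/- Smc3+/- and 1210 to 1290 TPM in Yy1-/-, against 1780 to 2370 TPM in Yy1+/+. The summed T and NK cell markers came to 121 to 516 TPM in Yy1-/- Smc3+/- and 79.9 to 438 TPM in Yy1-/-, against 358 to 585 TPM in Yy1+/+. Nkg7, the highest gene of that sum, averaged 167 and 148 TPM in these genotypes, against 454 TPM. Trac, 1 of the 4 that rose, averaged 15.6 and 22.3 TPM, against 0.328 TPM, so it went the other way from the sum. The mast cell and eosinophil markers came to 180 to 263 TPM in Yy1-/- Smc3+/- and 164 to 200 TPM in Yy1-/-, against 464 to 3550 TPM in Yy1+/+. Of 10 genes induced by tissue dissociation, 4 fell in Yy1-/- and 1 in Yy1-/- Smc3+/-, and their sum spread from 656 to 4390 TPM in Yy1-/- Smc3+/- and from 328 to 2120 TPM in Yy1-/-, against 539 to 11600 TPM in Yy1+/+. The markers at 0 in a whole genotype were Gp6 of megakaryocytes, in Yy1-/- Smc3+/- and Yy1+/+, and Epx of eosinophils, in Yy1-/-. Their part in the changes of the cohesin regulators was not tested.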

How the data were processed

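The authors deposited 1 RSEM gene table per library. Reads were processed with STAR 2.5.2b, RSEM 1.3.0 and mm10, per the submitters' processing notes; the annotation release was not given in the sources used here, and the low-input SMART-Seq kit does not mark strand, per the labels' protocols. The deposited columns hold expected counts, TPM, FPKM and weighted transcript lengths, per the file headers. Between 6.36% and 7.15% of genes had a count that was not whole (tolerance 1e-06), so counts were rounded. Symbols came from GENCODE M21, which matched 55094 identifiers with version, 300 without and left 93 unmatched.

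Genes passed edgeR's default filter (minimum count 10, minimum total 15) and were fitted over all 12 libraries with TMM factors in edgeR 4.0.16 (R 4.3.3), by the bias-adjusted quasi-likelihood method (legacy off), with Benjamini-Hochberg adjustment. Lengths were tested with limma 3.58.1 on the log2 scale over 7152 genes whose length varied. The CPM values are TMM-scaled. Replicate numbers were assigned in the order of the sample records, since the labels give none, and only name libraries. FPKM served only to check the order of levels. Both pipelines were tested on simulated data. Within a genotype, libraries correlated across genes at 0.916 to 0.966 and no pair shared more than 0.487% of counts over 10.

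The members and lists were chosen with earlier results of these data known. Named genes were all members, Yy1, Smc3, up to 4 changed genes per list with the smallest p, and the 3 genes nearest to each member (mean of at least 5 CPM). A gene with 2 identifiers was counted once. Alternatives were DESeq2 1.42.0, other scalings and filters, log2(TPM + 0.5), 2 genotypes alone and left-out libraries. Some genes that this rule names are not reported here.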

Additional observations from a re-analysis of the deposited data

Results flagged for a closer look

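In a group of 4 libraries, a value is given here when its gap to the nearest library exceeds Dixon's 95% limit. Of 87 groups of 4 examined, 2 met this, and chance alone gives about 1 in 20. Wapl measured 22.6 TPM in Yy1-/- replicate 1, with a gap of 0.85 of the range; this library had the lowest level of long transcripts, and the part of that level was not tested. The weighted transcript length of Pds5a was 7818 bases in Yy1-/- replicate 2, with a gap of 0.86 of the range, against up to 8934 bases in the other libraries of that genotype.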

How the results depend on the processing

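Sgo1 and Cdca5 in both mutant genotypes and Esco1 in Yy1-/- kept their calls under the 19 alternatives. Of the counts of members changed against Yy1+/+, the one in Yy1-/- was 5 with DESeq2 and 8 with the long-transcript covariate, against 3; the one in Yy1-/- Smc3+/- was 3 without a filter and 2 without the libraries with residual Yy1, against 5. Leaving out 1 library gave 3 to 4 members in Yy1-/- and 2 to 5 in Yy1-/- Smc3+/-, namely 2 without Yy1+/+ replicate 1 and 3 when Yy1-/- Smc3+/- replicate 2 was left out. Genes changed between Yy1-/- Smc3+/- and Yy1-/- numbered 6, 55 with DESeq2 and 311 without the libraries with residual Yy1 (34 higher, 277 lower), and no member was among them under any alternative. Members with a changed length in Yy1-/- numbered 1 with the 2 genotypes alone, against 0. The cause was not tested.

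Log2 values that changed sign were all uncalled. For Pds5a in Yy1-/- they were -0.04 without a filter, -0.34 on log2 TPM, -0.19 with the length offset, -0.16 without the libraries with residual Yy1 and -0.09 without the 2 libraries with few reads of long transcripts. For Wapl they were -0.11 in Yy1-/- and -0.03 in Yy1-/- Smc3+/- on log2 TPM, -0.09 in both without those 2 libraries, and -0.08 between the mutant genotypes with the covariate. Between the mutant genotypes Pds5b gave 0.05 on log2 TPM and without the libraries with residual Yy1; Mau2 gave -0.02 without the latter, -0.02 with the covariate and -0.06 without the 2 libraries; Yy1 gave 0.18 without the libraries with residual Yy1. With 1 library left out, values ran from -0.19 to 0.27 for Pds5a in Yy1-/-, and for Wapl from -0.10 to 0.19 in Yy1-/-, from -0.05 to 0.25 in Yy1-/- Smc3+/- and from -0.06 to 0.15 between the mutant genotypes; between those, they ran from -0.24 to 0.14 for Nipbl, from -0.10 to 0.13 for Mau2, from -0.20 to 0.10 for Pds5b and from -0.07 to 0.07 for Cdca5.

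The covariate, the older quasi-likelihood method of edgeR and the removal of those 2 libraries were chosen after seeing the data. No paired analysis was possible because the labels carry no replicate numbers. Each interval given shows the differences that 4 libraries per genotype leave possible.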
